A study of Homo sapiens with 16 samples.

Results

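The mitochondrial genome carries 37 genes, and all 37 are in the gene tables of this study of human pancreatic cancer cell lines. They were chosen by symbol, as every gene whose name starts with MT-, out of 63677 genes in the count table. They comprise 13 protein-coding genes, 2 ribosomal RNA genes and 22 transfer RNA genes, of which 28 belong to the heavy-strand transcript and 9 to the light-strand transcript. RNA was sequenced from the established lines MiaPaCa2 and PANC1 in 4 groups per line, namely untreated control cells, cells given 40 nM gemcitabine, cells given 50 µM genistein, and co-treated cells given 40 nM gemcitabine together with 50 µM genistein, each for 24 hours. Each of the 8 groups had 2 biological replicates, so there were 16 libraries, with 12943482 to 31991860 reads counted on genes. Gemcitabine is a deoxycytidine analog that interferes with DNA synthesis, and genistein is a plant isoflavone. No gene was altered in these cells, and each line stands for a single tumour. The keratin genes KRT8, KRT18 and KRT19 and the vimentin gene VIM were present in every library, with FPKM (the authors' read level corrected for transcript length and sequencing depth) of at least 56.5, whereas the leukocyte gene PTPRC did not exceed 0.0146 and the acinar and islet genes PRSS1, CPA1 and INS were listed at 0.

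Mitochondrial DNA is transcribed from both strands into long precursor RNAs, from which transfer RNAs are cut out and so release the messenger and ribosomal RNAs between them. The encoded proteins are subunits of the respiratory chain and of ATP synthase: the MT-ND genes encode subunits of complex I, MT-CYB cytochrome b of complex III, the MT-CO genes subunits of complex IV, and MT-ATP6 and MT-ATP8 subunits of ATP synthase. MT-ND6 is the sole protein-coding gene of the light-strand transcript. Its mRNA is known to lack the poly(A) tail that the heavy-strand mRNAs carry. This bears on libraries made by poly(A) selection, as these were. The selection also limits counts on transfer and ribosomal RNA genes. How much of those counts comes from mature RNA and how much from uncut precursor was not tested. They are not read below as amounts of mature RNA.

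The ends of the reading frames show where the tail matters and how close the genes of both strands lie, and are therefore printed here from the GRCh37 reference, 5′ to 3′ on the gene's own strand, with the encoded letters of the stop codon in capitals. In 6 of the 13 genes the DNA holds only the first letter or letters of the stop codon, and polyadenylation completes it.
MT-CYB, chrM:15875-15887, plus strand: ctcaaatgggccT
MT-ND3, chrM:10392-10404, plus strand: gactgaaccgaaT
MT-CO3, chrM:9978-9990, plus strand: tgatgagggtctT
MT-ND1, chrM:4249-4262, plus strand: ccccctcaaaccTA
MT-ND5, chrM:14134-14148, plus strand: ctcctaatcacaTAA
MT-ND6, chrM:14149-14163, minus strand: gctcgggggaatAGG

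MT-ND6 (ENSG00000198695, chrM:14149-14673, minus strand), which ends in AGG, and MT-ND5, which ends in TAA, meet end to end on opposite strands with no base between them. The 60 bases around that point, read on the plus strand with the last 30 bases of MT-ND5 in capitals and the complement of the last 30 bases of MT-ND6 in lower case, show why the strand of a read matters for MT-ND6.
MT-ND5/MT-ND6 junction, chrM:14119-14178, plus strand: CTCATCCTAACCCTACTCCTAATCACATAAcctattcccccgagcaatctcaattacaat
The libraries were stranded, but whether the counting used the strand is not given in the sources used here, so reads from MT-ND6 and from heavy-strand RNA antisense to it may not be separated, and their part in the MT-ND6 values was not tested. Of 582 annotated genes that lie wholly inside exons of the other strand, 308 had any count and 32 had at least 100 counts summed over all libraries.

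Copies of mitochondrial DNA in the nuclear genome limit what could be counted, because reads with multiple alignments had been removed. Of all 16520 windows of 50 bases, the read length, along the mitochondrial genome, 3944 (23.9%) also occurred letter for letter in a nuclear chromosome, 2833 of them on chromosome 1. The first 50 bases of MT-CO1 are an example, since they are identical at both places.
MT-CO1 window, chrM:5904-5953, plus strand: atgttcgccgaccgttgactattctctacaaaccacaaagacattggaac
MT-CO1 window, nuclear copy, chr1:566454-566503, plus strand: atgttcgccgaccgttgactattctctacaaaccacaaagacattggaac
The share of windows with such a copy was 50.6% in MT-CO1, 48.3% in MT-ATP6 and 43.6% in MT-ND2, against 95 of 476 windows in MT-ND6, 4.8% in MT-ND5, 3.5% in MT-ND4 and 1.6% in MT-CYB. Counts per kilobase, scaled to the same depth as FPKM and given as a median over the 16 libraries, were 0.694 of the FPKM for MT-CO1 and 0.545 for MT-ATP6, and 1.1, 1.02 and 1.01 for MT-ND5, MT-ND4 and MT-CYB. Other members did not follow the share of copies. MT-ND3 and MT-ND4L, with 0.0% of windows copied, had ratios of 0.511 and 0.382, and MT-RNR2, with 15.7%, had 0.997. The ratio was lowest, at 0.102, for MT-ATP8, which overlaps MT-ATP6 on the same strand. What sets these ratios was not tested. Levels of different genes in control cells are therefore compared below as FPKM, and changes between groups as counts.

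In control cells MT-ND6 was the lowest of the 15 messenger and ribosomal RNAs in both lines. Its FPKM was 120.6 and 105.2 in the MiaPaCa2 replicates and 54.7 and 80.9 in the PANC1 replicates. All other members of these classes lay at 808 or higher. The highest levels in MiaPaCa2 were those of MT-CO3, with FPKM of 10079 and 11210, and MT-CO2, with 8937 and 10229, whose replicates overlapped. In PANC1 it was MT-CO2 that came first, at 7841 and 7884, above MT-CO3 at 7008 and 7327. MT-ND5, the next lowest mRNA, had FPKM of 855 and 936 in MiaPaCa2 and of 908 and 1028 in PANC1. Its replicates overlapped those of MT-RNR1, the small ribosomal RNA, in both lines.

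**Figure D1:**
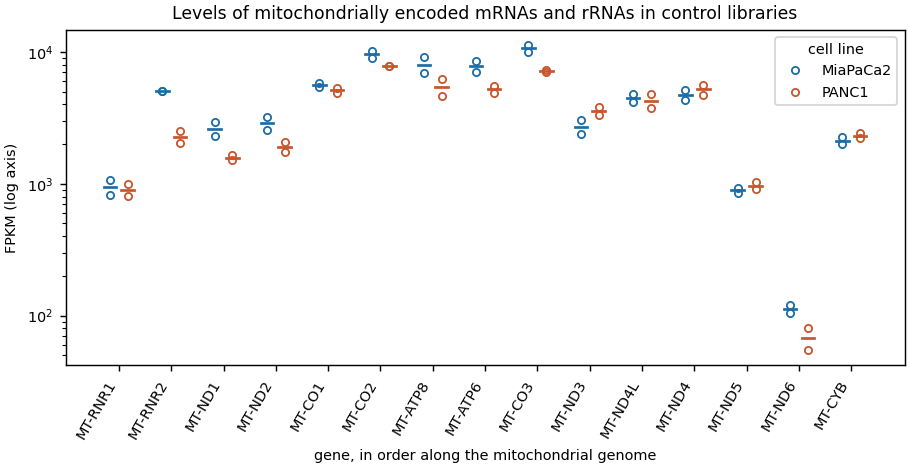
FPKM (log axis) of the 13 mRNAs and 2 ribosomal RNAs in the control libraries, in order along the mitochondrial genome. Circles are replicates and short lines their means, with MiaPaCa2 in blue and PANC1 in orange. MT-ND6 lies below all others in both lines, and MT-RNR2 is lower in PANC1, with 2051 and 2518 against 5030 and 5092.

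Untreated PANC1 cells had lower levels of 12 members than untreated MiaPaCa2 cells, and higher levels of none that passed the call rule. In bulk RNA such as this, less RNA per cell and fewer cells that hold it cannot be told apart. The call rule asks 3 things of a gene: adjusted p (limma-voom, Benjamini-Hochberg over all genes tested) no higher than 0.05, a log2 fold change of 0.4 or more in either direction, and an average FPKM over 1. Under this rule 52.2% of all 17863 genes tested were called between the lines, 27.9% as higher and 24.3% as lower in PANC1. Low counts removed 16 of the 37 members from this test, so that 21 were tested. The largest difference among the mRNAs and ribosomal RNAs was that of MT-RNR2, the large ribosomal RNA of the mitochondrial ribosome. Its counts relative to library size (CPM, scaled by the TMM method) were 8263 and 8377 in MiaPaCa2 and 3419 and 3854 in PANC1, a log2 fold change of -1.19 with a standard error of 0.11 (adjusted p = 4.4e-07). MT-RNR1, cut from the same precursor, differed by -0.14 ± 0.16 and was not called (adjusted p = 0.454). MT-ND6 differed by -0.76 ± 0.18 on the log2 scale (adjusted p = 0.00242), with CPM of 53.3 and 46.6 in MiaPaCa2 and 25.1 and 33.8 in PANC1. The complex I mRNAs differed among themselves. MT-ND1 had a log2 fold change of -0.75 ± 0.10 (adjusted p = 1.7e-05) and MT-ND2 of -0.62 ± 0.12 (adjusted p = 0.00055). MT-ND4, MT-ND4L and MT-ND5 had values of 0.14, -0.10 and 0.09 and were not called. MT-ND3 was the member nearest to a rise, at 0.39 ± 0.13 (adjusted p = 0.0199), just under the fold threshold. MT-CYB, at 0.10 ± 0.08, was not called either. The other calls were MT-CO3 (-0.61), MT-ATP6 (-0.62), MT-ATP8 (-0.57) and 5 transfer RNAs, with MT-TP (-1.57), MT-TV (-1.29), MT-TT (-1.20) and MT-TI (-1.13) the farthest from 0. MT-ATP8 was not called without MiaPaCa2 control replicate 2, MT-TL1 and MT-TV not without MiaPaCa2 control replicate 1, and MT-TV not without PANC1 control replicate 1 either. The median log2 fold change was -0.60 over the 21 members and 0.06 over all genes tested.

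Counts on the nuclear copies themselves were compared as a check on misplaced reads, whose part in the values above was not tested. The pseudogene MTND4P12, picked out here after its values were seen, had 4597 to 9923 counts per library in MiaPaCa2 and 47 to 123 in PANC1, while MT-ND4, the gene it resembles, was not called between the lines. MTATP6P1 had 2399 to 4846 counts in MiaPaCa2 and 2598 to 6511 in PANC1, and MTND2P28 had 1173 to 2250 and 1234 to 3347. Among the 182 copies chosen by pseudogene symbol, 162 had no count in any library, and these 182 together took 0.024% to 0.107% of counted reads. MTCO1P12, MTCO2P12 and MTCO3P12 on chromosome 1 and copies of the ribosomal RNA genes are not among them. That share therefore does not cover every nuclear copy. MTND1P23 had 4 to 16 counts and MTATP8P1 at most 4.

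The first question asked of the treatments was what gemcitabine did to the mitochondrial RNAs. In MiaPaCa2 cells without genistein, MT-ND6 fell to 0.37 of its control level and MT-CYB fell too, while MT-RNR2 rose. CPM of MT-ND6 was 53.3 and 46.6 in control cells and 16.4 and 22.3 after gemcitabine, from counts of 876, 608, 271 and 354. The groups did not overlap, and the log2 fold change was -1.44 ± 0.18 (adjusted p = 8.0e-05). CPM of MT-CYB was 2436 and 2737 in control cells and 1431 and 1654 after gemcitabine, also without overlap, with a log2 fold change of -0.80 ± 0.09 (adjusted p = 3.1e-05). CPM of MT-RNR2 was 8263 and 8377 in control cells and 10520 and 13548 after gemcitabine. Its log2 fold change was 0.47 ± 0.09 (adjusted p = 0.00180), but 0.29 without gemcitabine replicate 2, which is below the fold threshold. MT-ND5, the neighbour of MT-ND6 on the other strand, had CPM of 1803 and 1973 in control cells and 1587 and 1910 after gemcitabine. These groups overlapped, and the log2 fold change was -0.17 ± 0.09 (adjusted p = 0.167).

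In total 10 of the 21 members tested were called in this contrast, 1 higher and 9 lower, where 29.5% of all genes tested were called, 14.9% higher and 14.6% lower. Beside MT-ND6 and MT-CYB these were the mRNAs MT-ND3 (-0.47), MT-ATP6 (-0.48) and MT-ATP8 (-0.53), and the transfer RNAs MT-TI (-1.19), MT-TP (-1.06), MT-TT (-0.93) and MT-TV. The 13 mRNAs all had log2 fold changes below 0, with a median of -0.37, against -0.01 over all genes tested. The complex IV mRNAs MT-CO1 and MT-CO2 were close to 0, at -0.04 ± 0.08 and -0.06 ± 0.10. Directions of the weakest members depended on scaling: 19 of the 21 members were below 0 with TMM or DESeq2 size factors and 17 with library size alone, which shifts the median over all genes to 0.094. Leaving out 1 library at a time left 6 to 11 calls, and MT-ND3, MT-ATP6 and MT-ATP8 were lost without control replicate 2 or gemcitabine replicate 1. MT-TP and MT-TV were each lost without 3 of the 4 libraries.

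**Figure D2:**
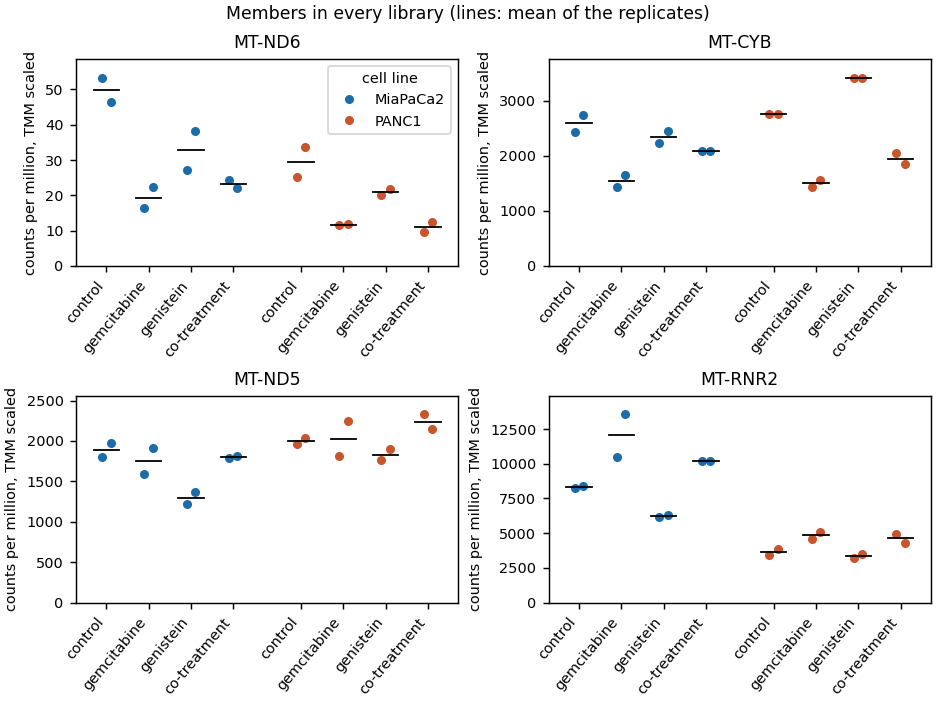
CPM (TMM-scaled counts relative to library size) of MT-ND6, MT-CYB, MT-ND5 and MT-RNR2 in each of the 16 libraries, by treatment, with MiaPaCa2 in blue and PANC1 in orange and lines at the mean of 2 replicates. MT-ND6 and MT-CYB are lower in the gemcitabine libraries than in the controls in both lines, MT-RNR2 is higher, and MT-ND5 overlaps.

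In PANC1 cells MT-ND6 and MT-CYB also fell after gemcitabine, each in its own test, and MT-RNR2 rose. CPM of MT-ND6 was 25.1 and 33.8 in control cells and 11.6 and 11.9 after gemcitabine, from counts of 500, 1081, 214 and 251. The groups did not overlap, and the log2 fold change was -1.29 ± 0.21 (adjusted p = 0.0124). The call was lost without either gemcitabine replicate (adjusted p = 0.108 and 0.125), with log2 fold changes of -1.26 and -1.31. CPM of MT-CYB was 2751 and 2767 in control cells and 1433 and 1564 after gemcitabine, a log2 fold change of -0.84 ± 0.08 (adjusted p = 0.00209) that remained called whichever library was left out. CPM of MT-RNR2 was 3419 and 3854 in control cells and 4605 and 5113 after gemcitabine, a log2 fold change of 0.46 ± 0.11 (adjusted p = 0.0440) that was called without control replicate 2 but not without any of the other 3 libraries. MT-CO3 was the fourth call, at -0.43 ± 0.07 (adjusted p = 0.0106), and it was lost without either gemcitabine replicate. Thus 4 of 19 members tested were called, 1 higher and 3 lower, where 7.52% of all genes tested were called, 4.49% higher and 3.03% lower. MT-ND1 had a log2 fold change of 0.33 ± 0.07 (adjusted p = 0.0245), under the fold threshold, with CPM of 1238 and 1227 in control cells and 1497 and 1511 after gemcitabine. MT-ND5 was at 0.06 ± 0.11. The median over the members was -0.14, against 0.03 over all genes, and 14 of the 19 members lay below 0 (12 with library size alone, 15 with DESeq2 size factors).

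Cells that received genistein as well gave another look at gemcitabine, since the groups compared share no library with the groups compared above. All groups of a line share the scaling and the estimate of the spread, however, so the adjusted p-values are not independent. In MiaPaCa2, CPM of MT-ND6 was 27.1 and 38.3 with genistein and 24.3 and 22.2 with both drugs. These groups did not overlap, and the log2 fold change was -0.55 ± 0.18 (adjusted p = 0.0281). This smaller fall was not called without genistein replicate 2 (-0.26, adjusted p = 0.356) or without co-treatment replicate 2 (-0.45, adjusted p = 0.11). CPM of MT-CYB was 2227 and 2444 with genistein and 2092 and 2079 with both drugs, and the log2 fold change of -0.21 was not called (adjusted p = 0.0684). MT-RNR2, the large ribosomal RNA, rose from CPM of 6186 and 6325 to 10191 and 10214, a log2 fold change of 0.66 (adjusted p = 0.00015). MT-RNR1 rose as well, from 403 and 391 to 549 and 608, a log2 fold change of 0.50 ± 0.14 (adjusted p = 0.0120). The mRNAs MT-CO1 (0.51), MT-ND5 (0.44) and MT-ND1 (0.40) were also called as higher, so that 5 members rose and 1 fell among the 21 tested. Among all genes tested 31.5% were called, 16.6% higher and 14.9% lower. Without genistein replicate 1 the calls of MT-ND5 and MT-ND1 were lost. The median over members was 0.26, against -0.01 over all genes.

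In PANC1, CPM of MT-ND6 was 20.1 and 21.8 with genistein and 9.48 and 12.4 with both drugs, without overlap. The log2 fold change was -0.96 ± 0.23 (adjusted p = 0.0405), and the call was lost whichever library was left out (log2 fold changes of -0.79 to -1.14). CPM of MT-CYB was 3414 and 3409 with genistein and 2044 and 1852 with both drugs, a log2 fold change of -0.83 ± 0.08 (adjusted p = 0.00259). It was not called without genistein replicate 1 (adjusted p = 0.0625) or genistein replicate 2 (adjusted p = 0.0702). MT-RNR2 had CPM of 3177 and 3487 with genistein and 4960 and 4269 with both drugs, a log2 fold change of 0.45 that did not pass (adjusted p = 0.0563). These 2 falls were the only calls among 19 members tested, where 8.18% of all genes were called, 3.87% as higher and 4.31% as lower. The median was -0.20 over members and 0.00 over all genes tested.

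**Figure D3:**
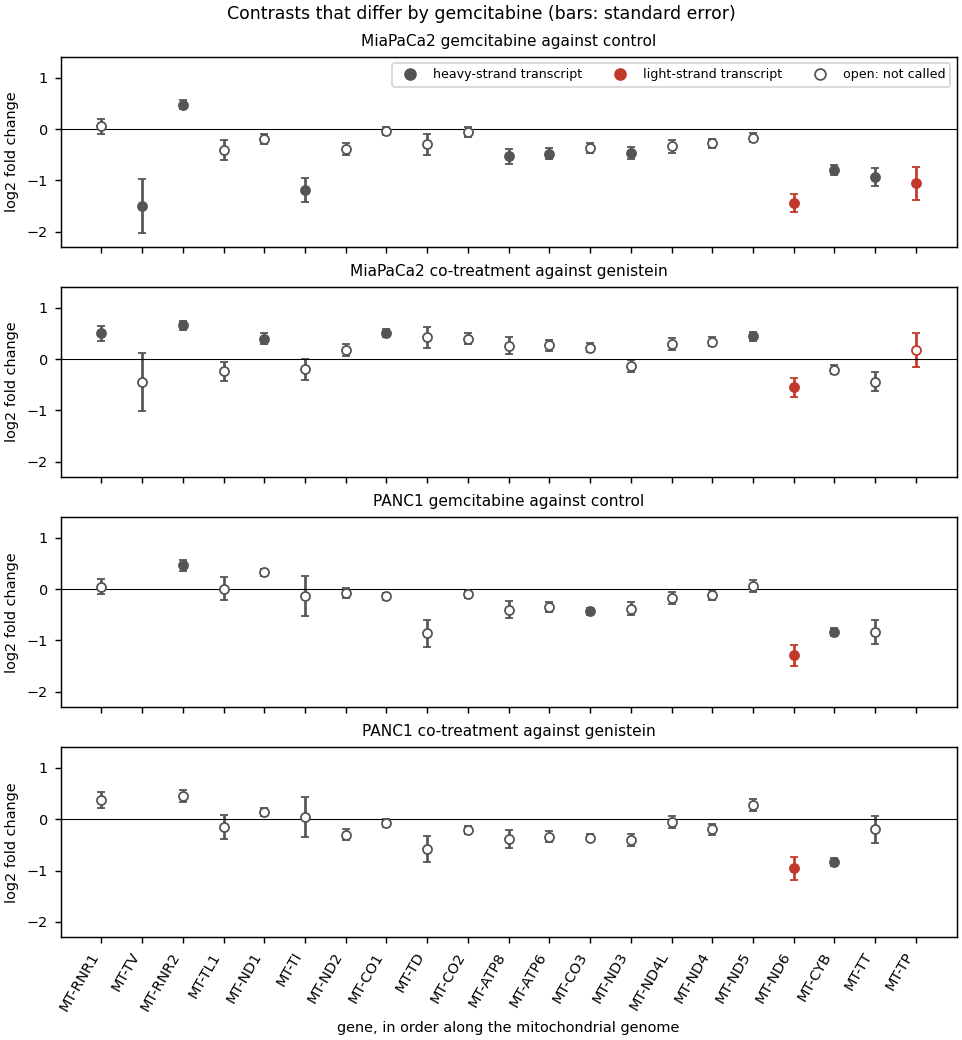
Log2 fold changes (vertical axis) with standard errors (bars) of the tested members in the 4 contrasts that differ by gemcitabine, in order along the mitochondrial genome. Filled points were called, open points were not, and red marks the light-strand transcript. MT-ND6 is at -1.44, -0.55, -1.29 and -0.96 from the top panel to the bottom panel, and MT-CYB at -0.80, -0.21, -0.84 and -0.83.

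Set side by side, the 4 contrasts show which members lay on the same side of 0 throughout. Of the 19 members tested in all 4, only MT-ND3, MT-ND6, MT-CYB and MT-TT had log2 fold changes below 0 in each. Only MT-RNR1 and MT-RNR2 were above 0 in each. How many of all genes lie on the same side throughout was not counted, so these numbers have no background to be read against. The values of MT-RNR1 without genistein, 0.05 ± 0.14 in each line, lie within their standard error of 0. MT-RNR1 was at 0.05, 0.50, 0.05 and 0.37 and MT-RNR2 at 0.47, 0.66, 0.46 and 0.45, in the order MiaPaCa2 without and with genistein, then PANC1 without and with genistein. MT-CYB and the transfer RNA MT-TT are neighbours at the far end of the heavy-strand precursor, and MT-TT was at -0.93, -0.44, -0.84 and -0.20. MT-ND5, which precedes MT-CYB on the same precursor, was at -0.17, 0.44, 0.06 and 0.27.

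The ribosomal RNA at the start of the heavy-strand precursor and the mRNA at its far end can be compared within a library, where scaling plays no part. The log2 ratio of MT-RNR2 to MT-CYB counts was 1.76 and 1.61 in MiaPaCa2 control cells and 2.88 and 3.03 after gemcitabine, and 1.47 and 1.37 with genistein against 2.28 and 2.30 with both drugs. In PANC1 it was 0.31 and 0.48 in control cells and 1.68 and 1.71 after gemcitabine, and -0.10 and 0.03 with genistein against 1.28 and 1.21 with both drugs. The gemcitabine libraries were higher in each of the 4 pairs of groups, without overlap. This ratio was chosen after the changes of both genes were seen, so no test is attached.

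MT-ND6 was compared directly with heavy-strand genes as a ratio of counts within each library, which does not depend on library scaling. In counts per kilobase, which as a median over the libraries were 0.811 of the FPKM for MT-ND6 against 1.1 for MT-ND5, MT-ND6 stood at 10.2% and 8.15% of MT-ND5 in MiaPaCa2 control cells and at 3.56% and 4.02% after gemcitabine. With genistein it was at 7.7% and 9.7%, and with both drugs at 4.68% and 4.23%. In PANC1 it was at 4.42% and 5.72% in control cells, 2.2% and 1.82% after gemcitabine, 3.94% and 3.97% with genistein, and 1.41% and 1.99% with both drugs. In every one of the 4 pairs of groups the gemcitabine libraries lay below their counterparts without overlap. The mean log2 ratio fell by 1.20 with gemcitabine, to 0.44 of the level without it (exact permutation test, two-sided, within the 4 combinations of line and genistein, p = 0.00154, the smallest value its arrangements can give, adjusted p = 0.00617 over 4 ratio tests). The difference was -1.27 and -0.96 in MiaPaCa2 without and with genistein and -1.33 and -1.24 in PANC1. Within a single line the smallest p possible is 0.0556, and both lines gave that value in the exact test. The fall of MT-ND6 after gemcitabine was known from earlier work on these data when this test was chosen.

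Against MT-CYB, which fell itself, the gemcitabine difference in log2 ratio was -0.38 (exact permutation p = 0.00772, adjusted p = 0.0103), lower in 4 of 4 pairs. Within lines it was -0.47 in MiaPaCa2 (exact p = 0.0556) and -0.29 in PANC1 (exact p = 0.222). With genistein this ratio was lower too, by a mean log2 difference of -0.48 over all 16 libraries (exact permutation p = 0.00309, adjusted p = 0.00617) and in 4 of 4 pairs, with -0.32 in MiaPaCa2 (exact p = 0.111) and -0.64 in PANC1 (exact p = 0.0556). The ratio to MT-ND5 changed with genistein by -0.11 (exact permutation p = 0.336), lower in 3 of 4 pairs. In the genistein contrasts MT-CYB itself had log2 fold changes of -0.16, 0.43, 0.34 and 0.35. MT-ND6 had -0.62, 0.28, -0.46 and -0.13, in the order MiaPaCa2 without and with gemcitabine, then PANC1 without and with gemcitabine. A lower ratio to MT-CYB with genistein is thus not by itself a fall of MT-ND6.

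**Figure D4:**
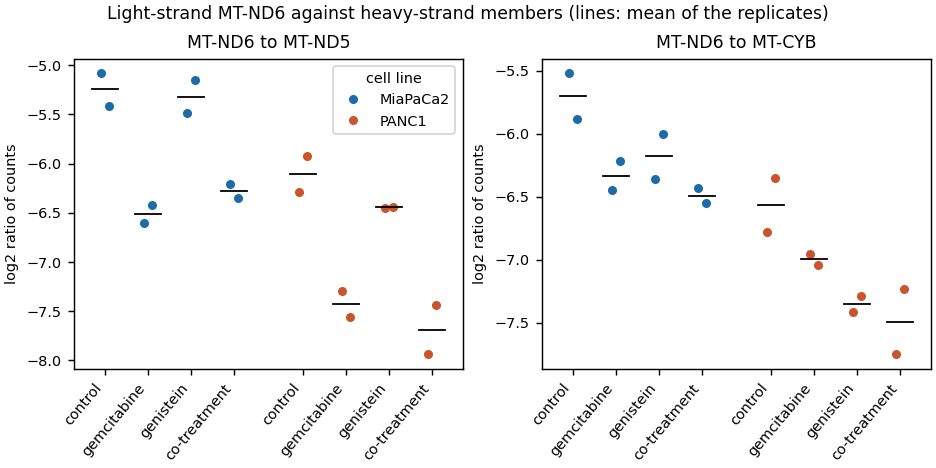
Log2 ratio of counts of MT-ND6 to MT-ND5 (left) and to MT-CYB (right) in each library, by treatment, with MiaPaCa2 in blue, PANC1 in orange and lines at the mean of 2 replicates. The ratio to MT-ND5 lies between -6.60 and -6.21 in MiaPaCa2 libraries with gemcitabine and between -5.49 and -5.08 in those without.

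In these poly(A)-selected libraries, counts on transfer RNA genes are not read as amounts of mature transfer RNA. The light-strand transfer RNAs gave few reads. The 8 of them together had 11 to 77 counts per library, against 169 to 520 for the 14 transfer RNAs of the heavy strand. Their share of transfer RNA reads was 11.5% and 11.6% in MiaPaCa2 control cells and 11% and 8.89% after gemcitabine. In PANC1 it was 9.69% and 12.9% in control cells and 8.65% and 5.99% after gemcitabine. These shares rest on 61 and 47 against 33 and 28 light-strand reads in MiaPaCa2 and 31 and 77 against 16 and 16 in PANC1. On so few reads the difference was not tested. The groups did not overlap in either line, but the nearest values in MiaPaCa2 were 11.5% and 11%. With 2 libraries per group that is not read as a difference between the groups. With genistein they did overlap, at 9.64% and 9.72% against 9.43% and 11.3% with both drugs in MiaPaCa2 and at 7.05% and 7.32% against 4.1% and 7.53% in PANC1. Of the 22 transfer RNAs 16 had at most 15 counts in every library, and MT-TN, MT-TC and MT-TK had 0 counts throughout. The FPKM table nevertheless lists these 3 above 0 in 13, 12 and 16 libraries, up to 398, 678 and 609. Every 50-base window of MT-TN and MT-TK, and 64.7% of those of MT-TC, has an exact nuclear copy. Among the better covered transfer RNAs, MT-TT had CPM of 10.8 and 9.96 in MiaPaCa2 control cells and 5.2 and 6.16 after gemcitabine (log2 fold change -0.93 ± 0.17, adjusted p = 0.00111). MT-TI had CPM of 4.44 and 4.6 and then 1.93 and 2.14 (-1.19 ± 0.24, adjusted p = 0.00187). In PANC1, MT-TI was at 1.8 and 2.25 in control cells and at 1.24 and 2.55 after gemcitabine, which overlap. The light-strand MT-TP was tested only in MiaPaCa2, where its counts of 36 and 32 in control cells became 24 and 14 (log2 fold change -1.06 ± 0.32, adjusted p = 0.0215). MT-TV, with counts of 26 and 13 against 6 and 9, was called on these few reads.

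The next question was what genistein did on its own, in contrasts that use the same control libraries as gemcitabine and therefore stand beside it without being compared. In MiaPaCa2 all 21 members tested had log2 fold changes below 0 under each of the library scalings tried (18 of 21 after a correction for GC content), with a median of -0.43, against 0.00 over all genes, and 10 were called as lower. Of all genes tested 8.30% were called in this contrast, 4.17% as higher and 4.13% as lower. CPM of MT-ND5 was 1803 and 1973 in control cells and 1215 and 1363 with genistein, a log2 fold change of -0.56 ± 0.09 (adjusted p = 0.00398). MT-ATP6 went from 2770 and 3425 to 1863 and 2061 (-0.66 ± 0.11, adjusted p = 0.00425) and MT-CO3 from 6481 and 7221 to 4552 and 5042 (-0.53 ± 0.09, adjusted p = 0.00551). None of these groups overlapped. MT-ND6 fell as well (-0.62 ± 0.17, adjusted p = 0.0328), from CPM of 53.3 and 46.6 to 27.1 and 38.3. The other calls were MT-ATP8 (-0.62), MT-RNR1 (-0.51), MT-ND4L (-0.46), MT-RNR2 (-0.43), MT-ND4 (-0.42) and MT-CO1 (-0.41). MT-CYB, with -0.16 ± 0.09, was not called. These calls rested on single libraries: none was left without control replicate 2, 3 without genistein replicate 1, and 5 without control replicate 1.

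In PANC1 none of 19 members was called with genistein by limma-voom, by edgeR or by DESeq2. Of all genes tested 0.0591% were called, all of them higher. An unadjusted p below 0.05 was found for 4 members and for 3252 of all 16909 genes tested. MT-CYB had CPM of 2751 and 2767 in control cells and 3414 and 3409 with genistein, a log2 fold change of 0.34 (adjusted p = 0.118), and MT-ND6 had -0.46 ± 0.20 (adjusted p = 0.271). The members were divided between directions, with 12 above 0 under TMM and 9 with DESeq2 size factors. Cells that already had gemcitabine gave little more. In MiaPaCa2 the addition of genistein to gemcitabine left MT-CYB as the sole call, at 0.43 ± 0.09 (adjusted p = 0.0111), from CPM of 1431 and 1654 to 2092 and 2079, where 5.88% of all genes were called, 4.05% higher and 1.83% lower. It was lost without gemcitabine replicate 1, when MT-RNR2 was called instead, at -0.41. In PANC1 no member was called by limma-voom, edgeR or DESeq2, where 0.0177% of all genes were called, 0.0118% higher and 0.00591% lower. An unadjusted p below 0.05 was found for 1 member and for 2262 of all 16909 genes tested. MT-CYB was there at 0.35 ± 0.08 (adjusted p = 0.144), and MT-ND6 at -0.13 ± 0.23.

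**Figure D5:**
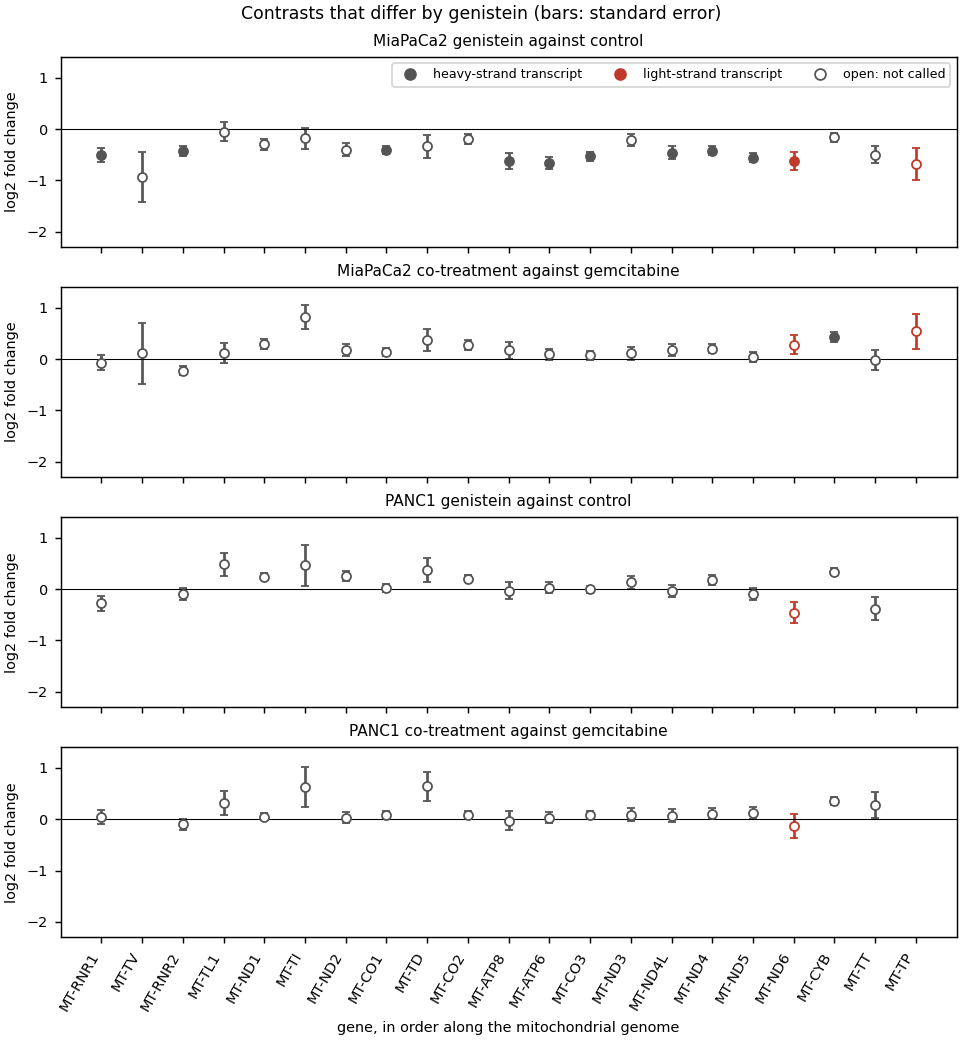
Log2 fold changes (vertical axis) with standard errors (bars) of the tested members in the 4 contrasts that differ by genistein, in order along the mitochondrial genome, with the same symbols as in the plot of gemcitabine contrasts. All 21 members are below 0 in MiaPaCa2 genistein against control, and no member is called in the PANC1 panels.

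Whether responses differed was tested directly. The gemcitabine response of PANC1 minus that of MiaPaCa2 was 0.06 ± 0.29 for MT-ND6 (adjusted p = 0.911), -0.14 ± 0.12 for MT-CYB (adjusted p = 0.451) and -0.11 ± 0.15 for MT-RNR2 (adjusted p = 0.658). With the GC correction the value for MT-RNR2 was -0.36 and passed (adjusted p = 0.0252). None of the 21 members passed, while 15.3% of all genes tested passed, 6.21% as higher in PANC1 and 9.06% as lower. An unadjusted p below 0.05 was found for 2 members and for 5724 of all 17863 genes tested. DESeq2 passed 1, MT-ND1 (0.44, adjusted p = 0.0389), and edgeR none. For genistein the difference between lines was above 0 for 20 of 21 members with a median of 0.45, but none passed. Of all genes 0.0336% passed, 0.00560% as higher and 0.0280% as lower. An unadjusted p below 0.05 was found for 9 members and for 2057 of all 17863 genes tested. The gemcitabine by genistein interaction in MiaPaCa2 was above 0 for all 21 members, at 0.89 ± 0.25 for MT-ND6 (adjusted p = 0.394), 0.75 ± 0.16 for MT-ATP6 (adjusted p = 0.180) and 0.63 ± 0.13 for MT-ND4 (adjusted p = 0.192), and none passed, where 0.0249% of all genes did, 0.00623% above 0 and 0.0187% below. Of the 21 members 16 had an unadjusted p below 0.05, as had 1346 of all 16064 genes tested. The members share libraries and precursor RNAs, so these are not independent counts. DESeq2 passed 4 of them, MT-CYB, MT-ND5, MT-ND4 and MT-ATP6, and edgeR none. In PANC1 the interaction passed for no gene of the table (0%), and no member passed with edgeR or DESeq2. No member had an unadjusted p below 0.05, while 832 of all 16909 genes tested had.

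Nuclear genes supply the proteins that copy, transcribe and process mitochondrial nucleic acids. A list of 39 of them, for transcription, replication, RNA processing and nucleotide supply, was matched in full. After gemcitabine 15 were called as lower and none as higher in MiaPaCa2, where 14.6% of all genes tested were called lower and 14.9% higher. The largest falls were those of TRMT10C (-0.91 ± 0.13), a subunit of the enzyme that cuts transfer RNAs at their 5′ ends, POLG2 (-0.74 ± 0.13), the accessory subunit of the mitochondrial DNA polymerase, MTPAP (-0.70 ± 0.12), the mitochondrial poly(A) polymerase, FASTKD3 (-0.70 ± 0.14), TFB2M (-0.69 ± 0.12), a transcription initiation factor, and LRPPRC (-0.63 ± 0.10), which stabilizes mitochondrial mRNAs. The RNA polymerase gene POLRMT was called at -0.61 ± 0.16 (adjusted p = 0.0113). TFAM, which packs and bends the DNA, was at -0.38 (adjusted p = 0.0108) and SLIRP, the partner of LRPPRC, at -0.32 (adjusted p = 0.0357), under the fold threshold. SUPV3L1, the helicase of the mitochondrial RNA degradation complex, was at -0.09 (adjusted p = 0.470). The median of the list was -0.24, against -0.01 over all genes, and 33 of the 39 lay below 0. Without control replicate 1 the count was 9, and with limma on log2(FPKM + 1) it was 3, again with none higher, while the GC correction gave 8 lower and 1 higher.

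In PANC1 a single gene of the list was called after gemcitabine, MGME1, a nuclease of mitochondrial DNA replication, at 0.72 ± 0.15 (adjusted p = 0.0255), where 7.52% of all genes tested were called. It was called without control replicate 2, together with 4 others, but not without any of the other 3 libraries nor with the replicate block, and the GC correction gave 4 genes, all higher. POLRMT was at -0.23, TFAM at 0.51, LRPPRC at 0.30, SLIRP at 0.01, MTPAP at 0.53 and SUPV3L1 at 0.20, none called, and the median was 0.02. The difference between the lines passed for 8 genes of the list, all higher in PANC1, which were MTPAP, TFAM, FASTKD2, FASTKD3, PNPT1, LRPPRC, MTERF3 and TFB2M, where 15.3% of all genes tested passed, 6.21% as higher and 9.06% as lower. That count rested on single libraries, with 0 to 3 passing when any library but PANC1 control replicate 2 was left out and 14 higher and 3 lower without that one. It was 7 with edgeR, 10 with DESeq2 and 2 with limma on log2(FPKM + 1), 3 with the replicate block and 2 without the low-count filter, none of them lower. The GC correction gave 6 higher and 1 lower, and of the 8 named genes only FASTKD2, MTERF3 and MTPAP then passed. With genistein present, 13 of the 39 were called lower with gemcitabine in MiaPaCa2 and none higher. Of all genes tested 14.9% were called lower and 16.6% higher there, 31.5% together. Up to 3 of the list were called higher under other settings. Library size alone gave 3 higher and 10 lower, and the GC correction gave 2 higher and 8 lower. In PANC1 none was called by limma-voom or edgeR, where 8.18% of all genes tested were called. Of the list 4 had an unadjusted p below 0.05, as had 4639 of all 16909 genes tested. DESeq2 called 1 of the list higher and 1 lower, and the GC correction gave 3 higher.

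The share of all counted reads that fell on the 37 genes was 3.25% to 5.11% in MiaPaCa2 and 3.32% to 4.06% in PANC1, as counted by the authors. In MiaPaCa2 it was 4.39% and 4.91% in control cells, 4.23% and 5.11% after gemcitabine, 3.25% and 3.59% with genistein and 4.86% and 4.74% with both drugs, and only the genistein libraries stood below the controls without overlap. The ribosomal RNAs took 0.612% to 1.43% of reads in MiaPaCa2 and 0.349% to 0.612% in PANC1. MT-ND6 made up 0.148% and 0.112% of the protein-coding mitochondrial counts in MiaPaCa2 control cells and 0.0538% and 0.0606% after gemcitabine. In PANC1 this share was 0.0768% and 0.102% in control cells and 0.044% and 0.0405% after gemcitabine.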

How the data were processed

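Stranded poly(A)-selected RNA libraries of 2 cell lines were sequenced by the authors as single reads of 50 bases, mapped to GRCh37 with TopHat2 2.0.4, and freed of reads with multiple alignments with Picard 1.29. The authors deposited whole-number counts per gene from HTSeq 0.6.1 and FPKM values per gene from Cufflinks 2.1.1, which already account for transcript length and depth. The annotation release and the strand setting are not given in the sources used here. Isoform FPKM values were not used, since each of the 37 genes has a single transcript.

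Counts were joined to symbols by Ensembl identifier. After TMM scaling and filterByExpr (edgeR 4.0.16) they went into limma-voom (limma 3.58.1 under R 4.3.3). Within-line contrasts used the 8 libraries of a line, comparisons between lines all 16. Differences between lines and interactions were judged by an adjusted p of at most 0.05 alone. Values with ± are standard errors of limma. Of the thresholds, the FPKM minimum of 1 applies to the treated group, or to either line between untreated lines. The methods of the study give these thresholds. With 2 replicates per group a single gene's spread is poorly determined, and counting error matters below about 100 counts. On simulated counts, 87% and 61% of genes changed by 1 log2 unit were recovered for gemcitabine in MiaPaCa2 and PANC1, and 100% and 98% of those changed by 2. For the difference in gemcitabine response 40% and 90% were recovered. Each simulation changed 100 genes by each amount, among 15771, 16649 and 17169 genes in this order, and used adjusted p alone. Another 13, 18 and 13 genes passed without a change. In the data 29.5% and 7.52% of genes were called after gemcitabine in MiaPaCa2 and PANC1. These percentages therefore do not give the power of the calls here.

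Ratios were tested by exact permutation (scipy 1.17.1), with no pseudocount. Alternatives were edgeR's quasi-likelihood test, DESeq2 1.42.0, limma on log2(FPKM + 1), other scalings, no filter, a correction for GC content, other sets of libraries, the replicate number as a block, and each library left out. Whether the numbers I and II pair samples is not stated, and the main fits used no pairing. Deviations of same-numbered samples correlated at -0.30 to 0.16 in MiaPaCa2 and -0.57 to 0.33 in PANC1. The correlation was above 0.1 in 1 of 6 pairs of groups in MiaPaCa2 and in 3 of 6 in PANC1. All 13 mRNAs and 2 ribosomal RNAs may be named, up to 4 transfer RNAs per comparison by absolute change, and of the nuclear list the 6 with the largest change plus POLRMT, TFAM, LRPPRC, SLIRP, MTPAP and SUPV3L1. Other nuclear genes are named where a test of theirs passed. Genes, lists and tests were chosen with earlier results of these data known.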

Additional observations from a re-analysis of the deposited data

Results flagged for a closer look

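The change after gemcitabine differed between the lines for 8 nuclear genes of the mitochondrial list, each with a higher log2 change in PANC1 than in MiaPaCa2 in limma's test of the difference over all genes, in which 15.3% of all genes passed, 6.21% as higher. The difference was 1.15 for MTERF3 (adjusted p = 0.0233), 1.13 for MTPAP (adjusted p = 0.0101), 0.94 for FASTKD2 (adjusted p = 0.0345) and 0.87 for FASTKD3 (adjusted p = 0.0276). It was 0.83 for LRPPRC (adjusted p = 0.0484), 0.81 for PNPT1 (adjusted p = 0.0343), 0.80 for TFAM (adjusted p = 0.0414) and 0.61 for TFB2M (adjusted p = 0.0376). In MiaPaCa2 the changes themselves were -0.43, -0.70, -0.45, -0.70, -0.63, -0.61, -0.38 and -0.69 in this order, and in PANC1 0.82, 0.53, 0.58, 0.27, 0.30, 0.30, 0.51 and 0.03. With the GC correction only MTERF3, MTPAP and FASTKD2 of these passed, and 1 gene of the list passed as lower. None of the 8 was called in PANC1 on its own in the main fit. MTERF3 was called there with DESeq2 and with all 16 libraries in a single model. FASTKD2 and MTERF3 were called with the GC correction, alone or with the block. Each contrast rests on 2 replicates per group, and 0 to 3 genes of the list passed without any of 7 of the 8 libraries.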

How the results depend on the processing

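No called member changed direction under any alternative. Of 753 results for the 45 single calls under alternative settings, 622 kept the call and 131 lost it. These settings are not independent trials. Dropping the FPKM minimum reuses the main fit and could not lose a call. Scaling on nuclear genes alone barely changes the fit, with a median over all genes of -0.014 against -0.012 for gemcitabine in MiaPaCa2. The tally therefore does not measure how stable the calls are. In MiaPaCa2, members called after gemcitabine were 10, and 5 with limma on log2(FPKM + 1) and 6 with the GC correction alone or with the block. With genistein they were 10, and 2 with limma on log2(FPKM + 1) and 5 with all 16 libraries in one model. For co-treatment against genistein the 6 calls became 10 with the GC correction, alone or with the block. For co-treatment against gemcitabine the 1 call became 2 with edgeR and with the GC correction, alone or with the block. For the interaction the count of 0 became 4 with DESeq2, 6 with the GC correction and 8 with GC correction and block. In PANC1 the 4 calls after gemcitabine became 2 with only the libraries compared and 7 with all 16 libraries in one model. With genistein 1 was called after the GC correction, alone or with the block. For co-treatment against genistein the 2 calls became 1 without the low-count filter, 1 with the replicate block and 4 with the GC correction, alone or with the block. For the difference in gemcitabine response, 1 passed with DESeq2, 1 with library size alone and 3 (MT-ND1, MT-RNR2 and MT-TD) with the GC correction, alone or with the block. The cause of these shifts was not tested.

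Leaving out 1 library gave 6 to 11 calls for gemcitabine, 0 to 10 for genistein, 4 to 8 for co-treatment against genistein and 1 for co-treatment against gemcitabine in MiaPaCa2. It gave 1 to 4 for gemcitabine and 0 to 1 for co-treatment against genistein in PANC1, 11 to 12 between the lines and 0 to 1 for the difference in gemcitabine response. The lone sample of a group is then assumed to vary like the other groups.

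The main fits used no pairing by replicate number. A replicate block gave 10, 10, 7 and 1 calls in the MiaPaCa2 contrasts in the order above and 3, 0, 1 and 0 in PANC1. In PANC1 the fall of MT-ND6 with both drugs then missed the threshold (adjusted p = 0.0516). All 4 ratio tests stayed on their side of 0.05 under every alternative, with adjusted p of 0.0208, 0.422, 0.0208 and 0.0208 under the block, and left-out libraries moved the ratio to MT-ND5 with gemcitabine from -1.26 to -1.14. The median share of reads on the members was 3.85%, 6.28% of summed FPKM and 3.33% for the 13 mRNAs. Refits of the nuclear list were added after seeing the data. Few reads limit MT-ND6, at 150 to 1081 counts, and the transfer RNAs.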
